A study of Mus musculus with 2 samples.

Results

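Long intergenic noncoding RNA (lincRNA) region probes were examined in 2 populations of Peyer's patch cells. These probes were defined by their names in the array's own annotation, which give a stretch of the mouse genome (build mm9) and a strand, and not a gene. Non-control probes whose name started with a chromosome and ended in the mark for the forward or the reverse strand were taken on both arrays. They numbered 4449, each of 60 bases and each of a different sequence, out of 56605 non-control probes (7.86%). They lay in 3229 regions of 62 to 538251 bases (median 7207), and since many regions overlap, in 2149 separate stretches of genome. Forward probes numbered 2227 and reverse probes 2222. The array files placed 4358 of them inside the region and on the strand of their name and gave no position for the other 91.

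The cells came from the small intestine of C57BL/6 mice that carry an S100A4-GFP transgene, so both populations share that transgene. Peyer's patches were digested with dispase II, collagenase D and DNase I. Cells were then sorted into S100A4-negative and S100A4-positive fractions, and total RNA was amplified, labelled with Cy3 and hybridised to 1 array per fraction. S100A4 is a small calcium-binding protein found in several motile and myeloid cell types. The promoter of the transgene and the age, sex and number of mice are not given in the sources used here. With 1 array per group there was no replicate and no test between groups. Every difference below compares these 2 arrays and has no replicate check, and the errors given are those of the scanner software for 1 spot.

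LincRNAs are transcribed from stretches between protein-coding genes, are usually spliced and polyadenylated, and have no long open reading frame. Many are made at low levels and in few cell types, and some act on the chromatin or transcription of a neighbouring gene, while others host a microRNA. In immune cells they are known mainly from studies of myeloid differentiation, inflammatory responses and lymphocyte activation.

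Total signal and known genes describe the 2 fractions. S100a4 itself read 1057 against 119341 (log2 difference, positive minus negative, 7.45 ± 0.20 by scanner error). All 8 macrophage and monocyte markers on a list were higher in the positive fraction by at least 4-fold (median log2 difference 6.34), as were 5 of 6 innate lymphoid and 5 of 7 dendritic cell markers. In contrast 7 of 8 B cell, 6 of 8 T cell and 5 of 6 epithelial markers were lower by at least 4-fold. By the same 4-fold measure endothelial markers were higher in 3 of 4 cases and fibroblast markers in 2 of the 5 detected, and of 4 goblet and Paneth cell markers 3 were lower and 1 higher. In sorted bulk RNA a different share of cells of a type and a different amount of RNA per cell cannot be told apart, and this holds for every lincRNA value below. The part of cell composition in those values was not tested.

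The sequences behind the main results show what a probe of this kind can and cannot tell apart. The pair of regions with the largest differences, chr5:96591892-96606467 (forward) and chr14:55433382-55452757 (reverse), carry probes that are nearly the same sequence. They are written here 5′ to 3′ as given in the array files, with the bases found in unbroken stretches of at least 16 in both probes in capitals, 40 bases in the first pair and 51 in the second.
chr5 forward, first probe: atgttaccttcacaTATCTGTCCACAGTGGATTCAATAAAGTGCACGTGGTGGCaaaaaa
chr14 reverse, first probe: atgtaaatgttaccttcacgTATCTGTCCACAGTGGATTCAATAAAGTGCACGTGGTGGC
chr5 forward, second probe: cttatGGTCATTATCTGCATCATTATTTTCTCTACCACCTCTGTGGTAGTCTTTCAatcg
chr14 reverse, second probe: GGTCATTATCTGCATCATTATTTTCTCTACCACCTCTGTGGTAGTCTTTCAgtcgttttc
The arrays therefore do not separate signal from these 2 places, and the pair counts as 1 observation.

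A further pair shows the reverse situation, where a lincRNA region probe and a gene probe are exact reverse complements over all 60 bases (capitals). The forward probe of chr1:87613025-87631604 reads the strand opposite to A630001G21Rik.
chr1 forward: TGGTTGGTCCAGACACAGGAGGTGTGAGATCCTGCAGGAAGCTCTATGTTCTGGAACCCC
A630001G21Rik: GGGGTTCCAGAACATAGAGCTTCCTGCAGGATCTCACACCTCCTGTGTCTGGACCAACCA
The lincRNA region probe read 162.1 in the negative fraction and 12.3 in the positive, where it was not well above background. The probe of A630001G21Rik read 2984 and 199.2. The probes to both strands of this piece of chromosome 1 therefore read lower in the positive fraction, with log2 differences of -2.73 (a bound) and -3.27. Whether the weaker signal comes from a transcript of its own was not tested.

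Probes in 4 other regions that were called or lie beside a gene of interest are shown for the results that follow, with the polyadenylation signal AATAAA in capitals where it occurs. They stand for the Mir155hg stretch of chromosome 16, the Morrbid stretch of chromosome 2, the brightest of the regions that fell, and a region of chromosome 7 that fell.
chr16:84708695-84708806 forward: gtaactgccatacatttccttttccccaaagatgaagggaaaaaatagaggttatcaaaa
chr2:128211990-128215223 reverse: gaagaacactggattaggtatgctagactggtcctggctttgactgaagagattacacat
chr9:89167172-89168980 forward: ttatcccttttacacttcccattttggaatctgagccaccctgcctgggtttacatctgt
chr7:140012053-140012509 reverse: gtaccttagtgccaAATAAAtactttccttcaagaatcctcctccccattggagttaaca
AATAAA was searched on the probe's own strand alone. It occurred in 4.0% of lincRNA region probes and in 10.3% of all other non-control probes, and in 3 of the 117 probes that were at least 4-fold higher and 2 of the 23 that were at least 4-fold lower. Of those 3, 2 are the first probes of the chromosome 5 and 14 pair, which carry it in their shared bases.

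A probe counted as detected where the software marked it well above background. On at least 1 array 1853 of the 4449 lincRNA region probes were detected (41.6%), in 1501 of 3229 regions. Probes of protein-coding genes were detected in 64.2% of cases and probes of named lncRNA genes in 24.0%. In the negative fraction 1647 were detected and in the positive fraction 1584. They were found on both arrays in 1378 cases, on the negative array alone in 269 and on the positive array alone in 206. The other 2596 were detected on neither array and give no value. By the share of G and C in the probe, 38.4% were detected in the class with the least (up to 40%), 37.3% at 41.7% to 45% (1966 probes), 46.3% at 46.7% to 50% and 52.8% at 51.7% or more. All other probes went from 54.1% to 63.7% over the same classes.

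Differences are given on the log2 scale as the positive minus the negative fraction, after each array was centred on the 75th percentile of its non-control signals. Among the 1378 probes measured on both arrays the median difference was 0.33, with quartiles of -0.18 and 0.87 and a range of -4.65 to 5.48. The difference was above 0 for 946 of them (68.7%). Probes of named lncRNA genes had the same median of 0.33 (67.5% above 0), and probes of protein-coding genes a median of 0.02. The sign of the lincRNA median depended on how the arrays were scaled, since it was -0.30 with no scaling and -1.70 with the E1A spike-in controls, under which all other probes moved by the same amount. Relative to all other probes, whose median was 0.07, the lincRNA median was 0.26 higher under those scalings and 0.21 to 0.24 higher after quantile normalization, cyclic loess or normexp background correction. No test across arrays is possible for this gap.

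**Figure D1:**
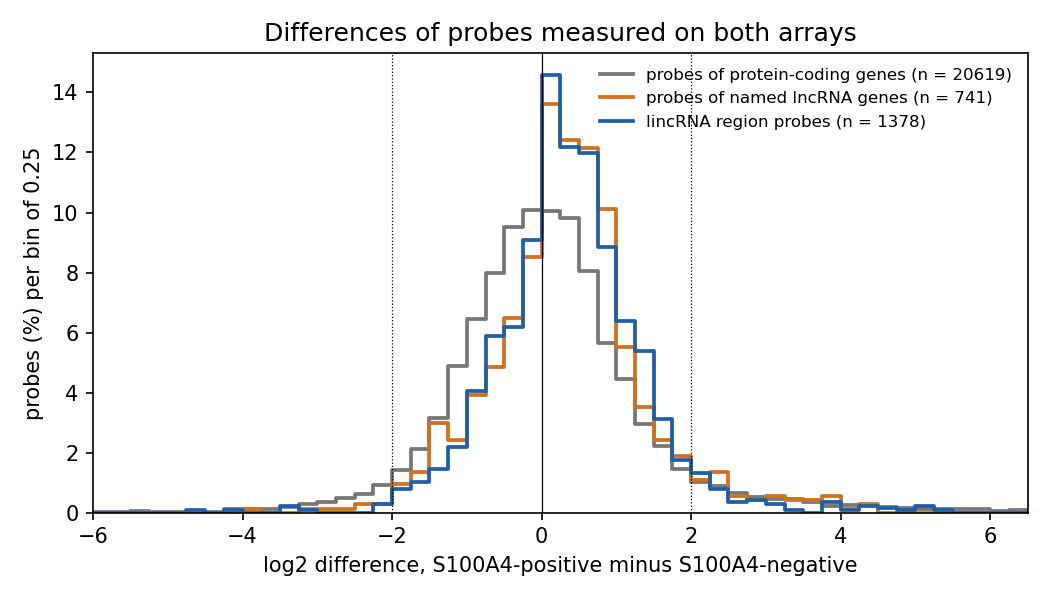
Distribution of the log2 difference (x axis, positive minus negative fraction) as a percentage of probes per bin of 0.25 (y axis), for lincRNA region probes (blue), named lncRNA genes (orange) and protein-coding genes (grey), each measured on both arrays; dotted lines mark 4-fold. The lincRNA and named lncRNA curves both lie to the right of the protein-coding curve around 0, with medians of 0.33, 0.33 and 0.02.

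The gap to other probes was not the same at every signal. When probes were put into 4 classes by the quartiles of the lincRNA region probes' mean signal, the dimmest lincRNA class had a median difference of 0.44 and the other probes of that class 0.40. In the next class the medians were 0.45 and 0.16. In the upper classes lincRNA region probes had medians of 0.24 and 0.20 while other probes had -0.01 and -0.00. By chromosome, the lincRNA median was above 0 on each of 20 chromosomes and was highest on chromosome 10 (0.59) and lowest on chromosome 12 (0.12). The share detected ran from 31.3% on chromosome 3 to 52.4% on chromosome 6. The share of G and C in a probe bore no visible relation to its difference (r = 0.02 across 1378 probes, which are not independent replicates).

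**Figure D2:**
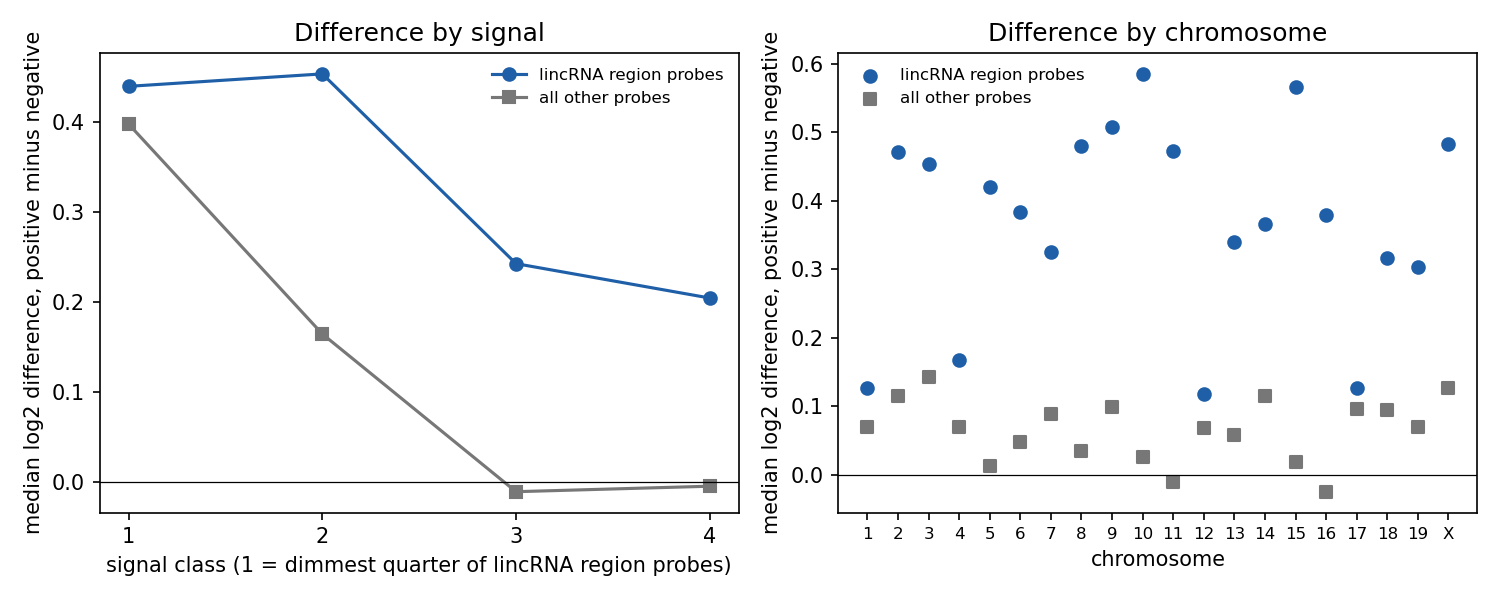
Median log2 difference (y axis, positive minus negative fraction) of lincRNA region probes (blue circles) and all other probes (grey squares) measured on both arrays, by signal class from dimmest (1) to brightest (4) at left and by chromosome at right. The sets nearly meet in class 1, at 0.44 and 0.40, and part in the brighter classes; at right the blue points run from 0.12 on chromosome 12 to 0.59 on chromosome 10.

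A probe was called higher or lower where the fractions differed by at least 4-fold. A probe detected on 1 array alone was given its smallest possible difference, counted from the array that detected it down to the weakest detected signal of the other array, or to the probe's own signal there if that was stronger (16.1 and 15.7 before scaling in the negative and positive fraction). By this measure 117 lincRNA region probes were higher in the positive fraction (6.31% of 1853) and 23 were lower (1.24%). All other detected probes were called higher in 8.2% of cases and lower in 4.57%. Detected lincRNA region probes were dimmer, with median signals of 64.7 and 58.3 in the negative and positive fraction against 243.9 and 163.7. A dimmer probe seen on 1 array can reach only a smaller bound. Among probes measured on both arrays the shares were 61 of 1378 higher (4.43%) and 10 lower (0.726%), against 6.01% and 3.65% of all other probes. Higher calls made up 83.6% of lincRNA calls and 64.2% of all other calls. The 140 called probes lay in 129 regions and 112 separate stretches of genome.

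The split between higher and lower calls depended on the scaling. With the E1A spike-in controls 24 lincRNA region probes were higher and 644 lower by at least 4-fold, and with no scaling 58 and 75, so that higher calls made up 3.59% and 43.6% of calls. These are 1.30% higher and 34.8% lower with the spike-in controls, against 2.05% and 47.4% of all other probes, and 3.13% and 4.05% with no scaling, against 5.26% and 9.495%. Quantile normalization gave 86 and 35 (71.1% higher) and the authors' deposited values gave 86 and 37 (69.9%), which is 4.64% higher and 1.89% to 2.00% lower, against 6.92% to 6.99% and 5.45% to 5.46% of all other probes. Taken over all signals, both shares were smaller for lincRNA region probes than for all other probes under each of these scalings. This was not so at every signal. In the brightest signal class, measured on both arrays, 6.38% of lincRNA region probes and 4.69% of other probes were higher. In each dimmer class the higher share was smaller for lincRNA region probes. These class values use the 75th percentile. Of the 117 probes called higher, 115 kept a difference above 0 with the spike-in scaling and 24 stayed at least 4-fold higher, and all 23 lower calls held under it. The log2 shift between arrays was -0.63 by the 75th percentile and 1.40 by the spike-in controls. The spike-in scaling therefore lowers every measured difference by the same amount. Lower calls had to hold under it and higher calls could fall no further than near 0, so these counts are no check of the calls.

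The largest differences of probes measured on both arrays were those of the chromosome 5 and 14 pair shown above. On chromosome 5, the 3 detected forward probes of chr5:96591892-96606467 read 378.0, 197.9 and 411.2 in the negative fraction. In the positive fraction they read 10853, 4240 and 7360, which gives log2 differences of 5.48 ± 0.20, 5.06 ± 0.21 and 4.80 ± 0.20. The reverse probe of the same region read 12.6 and 329.9, at least 4.99 higher. On chromosome 14, the reverse probes of chr14:55433382-55452757 read 416.7 and 178.4 in the negative and 9918 and 4048 in the positive fraction (5.21 ± 0.20 and 5.14 ± 0.21). The nearest named genes did not share this difference. Cnot6l, a subunit of the deadenylase complex that shortens messenger RNA tails, lay 43.3 kb from the first chromosome 5 probe and read 1446 and 869.4 (-0.10), and Rnf212b, 12 kb from the first chromosome 14 probe, was detected on neither array.

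The 8 regions next in order that rose lay on chromosomes 15, 1, 9, 17, 8, X and 11. The reverse probe of chr15:84752337-84752984 went from 31.0 to 512.4 (4.68 ± 0.28). On chromosome 1 the reverse probe of chr1:175654606-175672031 went from 80.0 to 1237 (4.58 ± 0.22) and the forward probe of chr1:186560855-186563399 from 40.8 to 554.6 (4.40 ± 0.24). These lie beside Ifi204, an interferon-inducible gene of the DNA-sensing family, and Hlx, a homeobox transcription factor. The forward probes of chr9:118291593-118324230 and chr17:3346621-3347209 differed by 4.29 and 4.28. The reverse probes of chr8:82836971-82849309, chrX:18734106-18744367 and chr11:96111499-96126224 differed by 4.13, 3.94 and 3.92. Their signals were 23.2 to 62.8 in the negative and 280.3 to 620.4 in the positive fraction, and all 8 read 80.0 or less in the negative fraction.

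**Figure D3:**
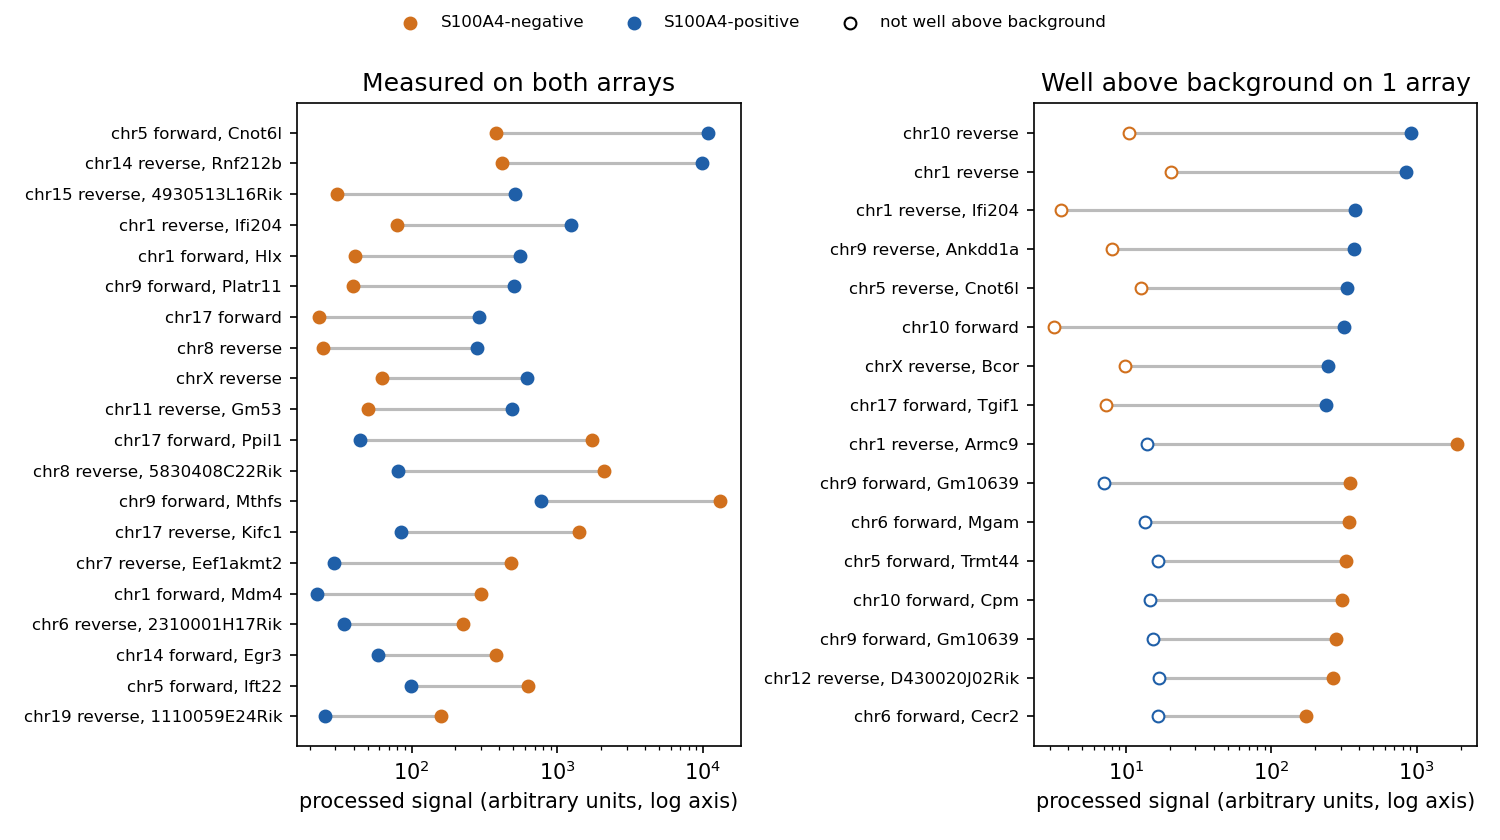
Processed signal (x axis, arbitrary units, log scale) in the S100A4-negative (orange) and S100A4-positive (blue) fraction for the regions with the largest differences measured on both arrays (left) and for the brightest regions detected on 1 array (right); each row is 1 probe, named by chromosome, strand and nearest named gene within 50 kb, and open circles were not well above background. The chromosome 5 and 14 rows at top left reach 10853 and 9918, and the chromosome 9 row beside Mthfs falls from 13177 to 773.8.

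Among probes detected in the positive fraction alone, 56 of 206 were at least 4-fold higher (27.2%, against 40.3% of all other such probes). The brightest of the 56 lay on chromosome 10, inside a larger region that was called higher on both strands. The reverse probe of chr10:6497224-6497863 read 10.5 and 912.0 (at least 6.45 higher) and the forward probe of chr10:6480075-6603900 read 3.19 and 313.9 (at least 4.91). No named gene had a probe within 50 kb of either. The larger region's own reverse probe was at least 4.62 higher. The reverse probe of chr1:163508244-163586072 read 20.3 and 840.2 (at least 6.00), while the forward probe of that region read 320.8 and 252.9 and differed by only 0.29 ± 0.21. A second reverse region beside Ifi204, chr1:175660642-175671878, read 3.56 and 376.3 at one probe (at least 5.18) and 453.0 and 652.4 at another (1.16 ± 0.20). The 2 reverse probes of chr9:65368908-65377592 read 7.99 and 8.73 in the negative and 372.4 and 118.7 in the positive fraction (at least 5.16 and 3.51).

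Fewer regions were lower in the positive fraction, and several were bright in the negative one. The forward probe of chr17:29378878-29379589 fell from 1726 to 44.3 (-4.65 ± 0.23), and the reverse probe of chr8:26212577-26218527 from 2087 to 81.2 (-4.05 ± 0.21). The forward probe of chr9:89167172-89168980 read 13177 and 773.8 (-3.46 ± 0.20), the brightest lower call. The reverse probes of chr17:34018371-34019394 and chr7:140012053-140012509 differed by -3.43 and -3.41, and the forward probe of chr1:134867906-134885481 by -3.11. The remaining 4 lay between -2.10 and -2.01.

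Of 269 probes detected in the negative fraction alone, 13 were at least 4-fold lower (4.83%, against 16.2% of all other probes detected there alone). The reverse probe of chr1:88187397-88187862 read 1901 and 13.9, at least 6.28 lower, which is the largest lower bound of these probes. Its nearest gene Armc9 read 28.4 and 11.5. A pair of overlapping forward regions, chr9:78107225-78118850 and chr9:78104935-78116974, read 346.7 and 279.4 in the negative and 7.10 and 15.2 in the positive fraction. Both forward probes of chr6:120670699-120677449 were seen in the negative fraction alone, at 172.6 and 147.4. Their nearest gene Cecr2, a chromatin-remodelling factor, also was, at 109.8.

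The regions that named the same genomic stretch more than once gave a check on the probe readings. In 112 cases at least 2 probes of 1 region and strand were detected, and the sign of the difference was the same for all of them in 79 (70.5%). For the 80 such cases with probes measured on both arrays it was the same in 64 (80.0%), with a median standard deviation between probes of 0.26. Because 68.7% of lincRNA differences measured on both arrays were above 0, signs often match between unrelated probes too. This holds for the strands compared below as well. At least 1 probe was called in 11 cases, all probes were called in 4, and in none were probes of 1 region and strand called in opposite directions. Smaller differences shared by every probe included the reverse probes of chr1:85304494-85305390, from 402.2 and 389.3 to 79.1 and 68.7 (-1.71 and -1.87), and of chr4:146507925-146532650, from 611.5 and 3783 to 162.4 and 906.7 (-1.28 and -1.43). The 5 lincRNA region probes spotted 10 times were all detected on both arrays, with differences of -0.83 to 0.99. The standard deviation over their spots was 0.05 to 0.07 in the positive fraction and 0.07 to 0.48 in the negative.

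Many regions carried probes to both strands, which reports the direction of transcription. Of 832 such regions, both strands were detected in 226, the forward strand alone in 141, the reverse strand alone in 198 and neither in 267. In the 131 regions with both strands measured on both arrays, the signs matched in 83 (63.4%) and the differences barely correlated (r = 0.08, n = 131 regions from 2 arrays). Of 21 regions with a call on at least 1 of 2 detected strands, 5 were higher on both strands. These 5 include both regions of the chromosome 5 and 14 pair, whose probes share sequence. The other strand differed by less than 2-fold, or in the opposite direction, in 14 of the 21. In chr1:134867906-134885481, beside Mdm4, an inhibitor of p53, the forward probe fell from 301.2 to 22.4 (-3.11 ± 0.30) and the reverse probe rose from 25.4 to 103.9 (2.67 ± 0.30). Mdm4 read 392.6 and 232.1 (-0.12). This was the only region with opposite calls on its strands. In chr8:26212577-26218527 the reverse probe fell by 4.05 and the forward probe differed by 0.96, and in chr11:96111499-96126224 the reverse probe rose by 3.92 while the forward probe differed by -0.38.

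In 160 pairs of probes, from 156 regions, the forward and reverse probe are reverse complements over at least 30 of their 60 bases, so that both read the same piece of genome. Only 1 strand was detected in 53 pairs, both in 32 and neither in 75. Where 1 strand was detected, the brighter array read a median of 100.6 on that strand and 5.18 on the other. A call was made on 8 pairs, and in none of them on both strands. The pair of chr7:13533925-13544525 is written here with the 58 complementary bases in capitals, because it shows how far the strands of 1 piece of genome can differ in signal.
chr7 forward: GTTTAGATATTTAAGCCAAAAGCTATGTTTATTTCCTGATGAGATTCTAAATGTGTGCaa
chr7 reverse: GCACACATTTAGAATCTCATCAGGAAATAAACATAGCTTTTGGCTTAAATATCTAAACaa
The forward probe read 65.3 and 312.3 (2.89) and the reverse probe 3.65 and 3.26, not well above background on either array. In contrast, 48 pairs of probes from different regions shared at least 30 bases on the same strand. For the 16 such pairs measured on both arrays the sign was the same in 15, with r = 0.96 (the chromosome 5 and 14 pairs included) and a median gap of 0.26, and all 3 pairs with a call had both probes called. The third is on chromosome X, where chrX:92139043-92140820 and chrX:92149320-92151107 share 49 bases and rose by 2.11 and 2.10.

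Nearest named genes were compared, because some lincRNAs are known to share the regulation of a neighbour. Distances are between probes and not between transcripts. A named gene had a probe within 50 kb of 1477 of the 1853 detected lincRNA region probes, and that gene was detected in 1098 cases. Across 716 pairs measured on both arrays the differences correlated with r = 0.29, and across 6716 pairs of named genes and their nearest neighbour with r = 0.18. Within 10 kb the r of lincRNA region probes was 0.44 (n = 371). With the gene on the same strand it was 0.41 (n = 430) and on the opposite strand 0.15 (n = 286). Same-strand pairs up to 5 kb apart had r = 0.56 (n = 145), those 10 to 25 kb apart 0.21 (n = 114), those 25 to 50 kb apart 0.34 (n = 73) and those 50 to 100 kb apart 0.14 (n = 48), so the values did not fall steadily. On the opposite strand r was 0.41 at 5 to 10 kb (n = 36) and -0.09 at 10 to 25 kb (n = 84). With a named lncRNA gene as neighbour r was 0.51 (n = 114), and with a protein-coding gene 0.24 (n = 580). All pairs come from the same 2 arrays, several probes share a neighbour, and whether a same-strand neighbour is part of the same transcript was not tested, so these values are a description.

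**Figure D4:**
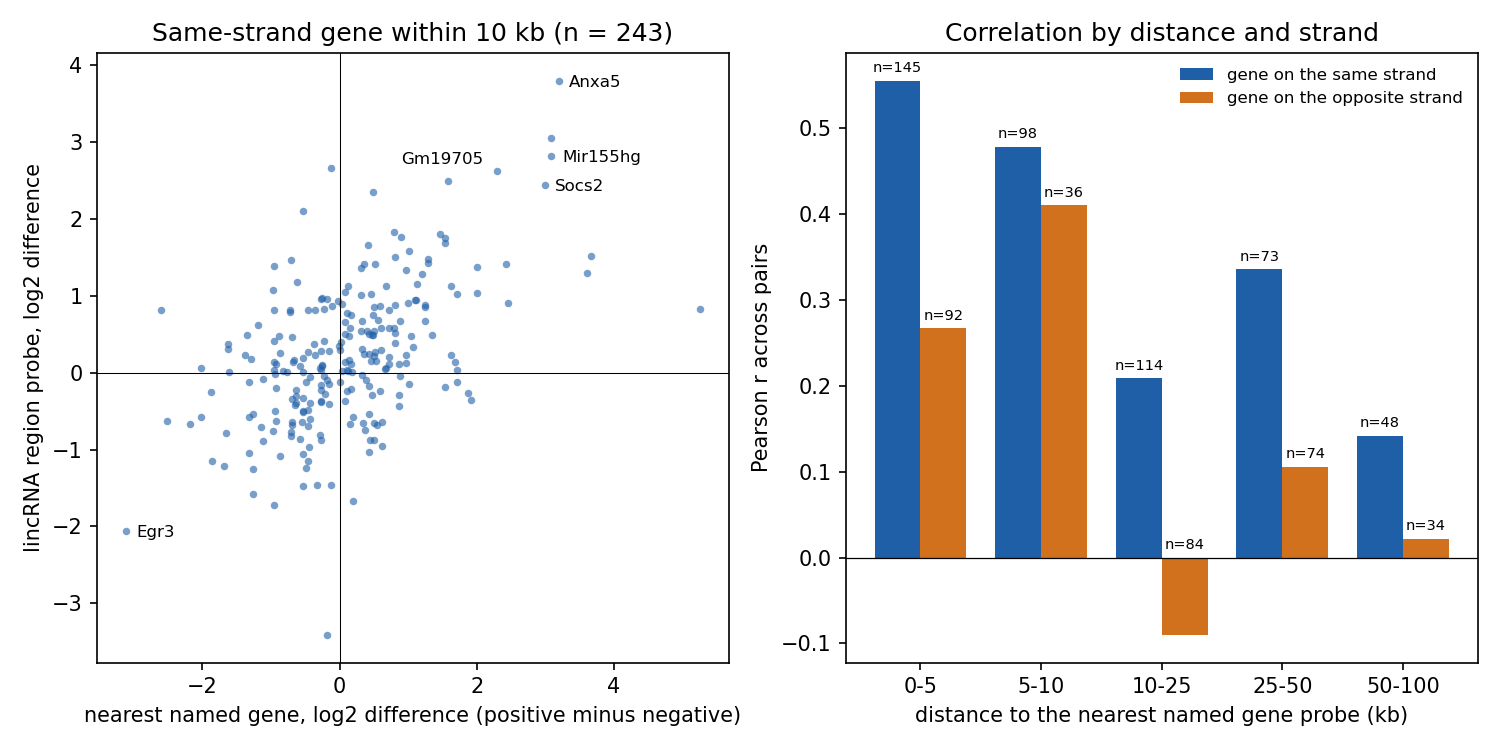
Log2 difference (positive minus negative fraction) of lincRNA region probes (y axis) against the nearest named gene on the same strand within 10 kb (x axis) at left, with genes named where both differ by at least 4-fold, and Pearson's r across pairs by distance in kb and by strand at right. Points scatter around a rising trend, with Egr3 at the lower left. Signs match in 69.7% of same-strand pairs within 5 kb and in 62.2% at 5 to 10 kb. On the same strand r is 0.56 within 5 kb, 0.21 at 10 to 25 kb, 0.34 at 25 to 50 kb and 0.14 at 50 to 100 kb.

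Of the 140 called lincRNA region probes 80 had a detected nearest gene. That gene differed in the same direction in 57 (71.2%), in the other in 22 and had no resolved direction in 1. It was itself called in the same direction in 28 (35.0%) and in the opposite in 1. For called named genes the shares were 63.6% and 17.9%. The lincRNA shares count probes, several of which share a neighbour, while each named gene was counted once. The shares are therefore not counted alike. All but 2 of the 19 lower probes with a detected neighbour shared its direction (89.5%), as did 40 of the 61 higher ones (65.6%). Called named genes did so in 60.4% of lower and 65.4% of higher cases. The share of the higher lincRNA region probes was therefore near that of genes. With the nearest gene on the same strand, 74.6% of called lincRNA region probes (53 of 71) shared its direction. On the opposite strand the share was 56.9% (29 of 51). With E1A scaling, under which the median of all other probes was -1.97, it was 94.1% (414 of 440).

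A nearest gene called in the same direction stood beside 21 lincRNA region probes that rose, with 16 such genes, and beside 7 that fell, with 5 genes (chromosome 18 left out). Those described here were picked after their values were seen, and neighbours such as Dpy19l1, Atrnl1 and Lrrc8d are among the others. Gene values are those of the probe nearest to the region. Mir155hg, the host transcript of microRNA 155, read 19.5 and 106.7 (3.09). The 3 regions called there lay 6.7 to 9.5 kb from its probe. The forward probes of chr16:84708695-84708806 and chr16:84707202-84707748 read 549.3 and 74.4 in the negative and 2506 and 397.8 in the positive fraction (2.82 ± 0.20 and 3.05 ± 0.21). The reverse probe of chr16:84702353-84710928, which spans both, read 348.7 and 1292 (2.52 ± 0.20). Morrbid is a lncRNA that controls the lifespan of short-lived myeloid cells, and it read 157.1 and 612.0 (2.60). On its strand, chr2:128211990-128215223 read 242.6 and 1416 (3.18 ± 0.21) and chr2:128217275-128217972 read 44.8 and 203.2 (2.82 ± 0.24), 14.1 and 19.6 kb away. The probe of Morrbid given here is the nearest one, and a second probe of the gene read 69.5 and 26.2 (-0.77), so its probes differed in sign.

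The nearest probe of Ifi204 was detected in the positive fraction alone, at 581.0 against 6.12 (at least 5.80 higher), while a second probe of the gene read 792.1 and 3318 (2.70), and the called probes of both regions beside it on the same strand stood 11.2 and 22.5 kb away. Hlx was detected in the positive fraction alone too (6.01 and 115.7, at least 3.47), on the strand opposite to the region 8.54 kb from it. Anxa5, a phospholipid-binding protein, read 2126 and 12558 (3.20). Within 1 kb of its probe both strands of chr3:36280098-36347798 were called, the reverse, on the strand of Anxa5, from 19.7 to 177.1 (3.80 ± 0.33) and the forward from 8.91 to 42.0 (at least 2.01). Socs2, a feedback inhibitor of cytokine signalling, read 146.5 and 751.8 (2.99) and chr10:94870971-94871658 on its strand 34.0 and 119.3 (2.44 ± 0.28). Lgals3, the lectin galectin 3, read 566.5 and 6793 (4.22) and chr14:47978277-47985238 on its strand was seen in the positive fraction alone (8.43 and 51.9, at least 2.32).

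One region stood in the cluster of S100 genes that holds the reporter gene's own locus, and was singled out after its values were seen. The forward probe of chr3:90425270-90435820 lay 10 kb from the probe of S100a6, a calcium-binding protein of the same family, on the same strand. It read 5.44 in the negative fraction, not well above background, and 106.8 in the positive, at least 3.36 higher. S100a6 read 1150 and 22237 (4.91).

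Beside regions that fell, the nearest genes include Egr3, an early-response transcription factor of activated lymphocytes. Egr3 read 2207 and 163.9 (-3.12) and the forward probe of chr14:70483555-70484159, 1.62 kb away on its strand, read 377.4 and 58.4 (-2.06 ± 0.22). Ppil1, a peptidyl-prolyl isomerase of the spliceosome, read 3475 and 294.4 (-2.93) on the strand opposite to chr17:29378878-29379589. Gm10639 was detected in the negative fraction alone (523.5 and 19.7, at least 4.10 lower), 36.4 kb from both overlapping chromosome 9 regions. Kifc1, a kinesin of the mitotic spindle, was detected in the negative fraction alone at 51.8 (at least 1.08 lower), 2.36 kb from chr17:34018371-34019394. Whether the probes of these regions read noncoding RNA or coding sequence, such as that of the gene beside them, was not tested.

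Groups of at least 3 called regions less than 200 kb apart occurred 4 times, all of them higher in the positive fraction. Higher calls made up 83.6% of all lincRNA calls. With overlapping regions joined, the chromosome 6 group covers 2 separate stretches of genome and each other group only 1. No such count is given here for other probes. Besides the Mir155hg stretch, 3 forward regions between 66574421 and 66644032 on chromosome 10 differed by 2.15, 2.34 and 2.98. Jmjd1c, a histone demethylase family gene, lay within 50 kb of the last 2 of them on the same strand. Its nearest probe read 727.8 and 297.0 (-0.66), and its 4 other detected probes differed by 0.83 to 1.51. On chromosome 6, 4 regions between 31007184 and 31287353 differed by 2.08 and 2.38 on the reverse and 3.32 and 3.06 on the forward strand, the second forward region lying inside the first. On chromosome X, 3 overlapping reverse regions between 11671167 and 11700242 were seen in the positive fraction alone, at least 3.52, 4.22 and 4.56 higher. Their nearest gene Bcor, a transcriptional corepressor of BCL6, read 247.1 and 405.7 (1.35) at the nearest probe and 2174 and 438.6 (-1.68) at another.

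Lists of lineage and signalling genes were also searched for lincRNA region probes beside them. Of 133 listed genes, 11 had a detected lincRNA region probe for which they were the nearest gene, with 16 such probes in all. None of the 16 was called, where the other detected probes of the array were called higher in 8.2% and lower in 4.57% of cases. The largest differences were 1.75 (at least) beside Cdkn1a, a cell cycle inhibitor, 1.39 beside Socs3, 1.29 (at least) beside Bcl6, a transcription factor of germinal centre cells, and -1.24 beside Cdkn1b. Myc, a driver of cell growth, differed by -3.20 while the region beside it, chr15:61870759-61938796, had a bound of -0.06. Klf5, an epithelial transcription factor, differed by -2.64 and the region beside it differed by 0.05. In contrast Cdkn1a and Nfkbia differed in the direction of the region beside them. Cdkn1a was 5.01 and at least 3.56 higher at its 2 detected probes, while its probe nearest to the region was not detected. Nfkbia was 2.26 higher, and the region beside it at least 0.99. A list of 46 named lncRNAs was read for comparison: 31 were detected, 5 were at least 4-fold higher (Mir22hg 3.42, Mir155hg 3.09, Firre 2.74, Morrbid 2.60 and Neat1 2.43) and none was at least 4-fold lower, the lowest being Snhg12 at -1.73. With 1 array per group no p-value stands behind that count.

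Matches to known transcription starts were few. Of 4449 probes, 90 shared at least 30 bases in a row with a RefSeq promoter window (250 bases before to 50 after a gene's start, assembly GRCm38.p6), 54 of them on the strand opposite to the gene and 41 on its strand, with 5 on both counts. Detection was 43 of 90 (47.8%), against 41.6% of all lincRNA region probes. Of these 43 only 1 was called (2.33%, against 7.56% of all detected lincRNA region probes), the forward probe of chr1:138579972-138587381, which matches the promoter window of Gm19705 on the same strand and went from 41.1 to 163.9 (2.63 ± 0.25). Gm19705, an annotated lncRNA gene, read 82.5 and 259.5 (2.29). Named genes with a probe inside a lincRNA region and on its strand had the same sign as the region's probe in 78 of 108 cases (72.2%, r = 0.52), and those on the opposite strand in 46 of 78 (59.0%, r = 0.29). These are the cases measured on both arrays. Of all 163 same-strand cases, 86 had a protein-coding gene and 65 a lncRNA gene, so many of these regions are not strictly intergenic. Of all 132 opposite-strand cases, each kind made up 63. Whether such probes read the transcript of the gene was not tested.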

How the data were processed

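Per the labels' protocols, total RNA was labelled with a low-input Agilent kit and hybridised to Agilent design 74809, 1 array per fraction. Per the file headers, the authors extracted signal intensities with Feature Extraction 10.7.1.1 (9.5.1.1 per the submitters' processing notes), background-subtracted but not scaled between arrays. The software's detection and outlier flags, deposited as other values beside the signals, were used as they stand. Here outlier spots were left out (1 detected probe lost its difference), probes spotted 10 times were averaged on the log2 scale, and the 75th percentile of each array was set to 0 (445.9 and 287.3). A probe is detected on an array if most of its spots, or as many as not, are well above background. Genes were named by RefSeq accession, symbol or synonym. Their nearest probe within 50 kb was taken on mm9, as the array files give it.

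The members, gene lists and rules were chosen with earlier results of these data known. Named were the 10 regions with the largest differences in each direction, the 8 brightest seen on 1 array in each direction, regions with several concordant probes (up to 6 each way) or discordant strands (5), groups of 3 called regions within 200 kb, and called regions beside listed genes (none). Called regions whose neighbour was called in the same direction, and sequences shared between probes, were added after the values were seen. By the same rules regions on chromosome 18 are counted and none is named; not every other chromosome has a named region. Calling was tested on simulated data, and the neighbour search was checked on the real probe positions against a search over every gene probe. Python 3.11.15, R 4.3.3 and limma 3.58.1 were used. Their number, 1 array per group, limits the precision.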

Additional observations from a re-analysis of the deposited data

How the results depend on the processing

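All values rest on 1 array per group, so no alternative could leave out a replicate. No paired analysis was possible because each group has 1 array. Probe signal over background limits detection: 3156 lincRNA region probes were positive and significant by the software's looser flag, against 1853 well above background on at least 1 array and 1378 on both. Higher and lower calls numbered 117 and 23 as reported. They numbered 41 and 6 with normexp background correction, 24 and 644 with the E1A spike-in scaling, 58 and 75 with no scaling, 61 and 10 for probes detected on both arrays, 197 and 23 with no filter, 182 and 74 with measured differences in place of bounds, and 452 and 130 at 2-fold. All other probes were higher in 20.7% and lower in 15.2% at 2-fold, against 24.4% and 7.02% of lincRNA region probes. Lower calls numbered 35 with quantile normalization and 37 in the deposited value table. The median difference of 0.33 was -1.70 with the spike-in scaling, -0.30 with no scaling and 0.56 with no filter, and 0.16 to 0.36 under the other alternatives. The share of called probes with a nearest gene of the same direction, 71.2%, was 76.9% within 25 kb, 56.9% for the opposite strand and 94.1% with the spike-in scaling. With the nearest protein-coding gene, an alternative chosen after seeing the data, it was 68.0%. Probes of 1 region and strand had 1 sign in 70.5% of cases and in 80.0% of those measured on both arrays. The spike-in scaling and the lack of scaling each move every measured difference by the same amount, so the changes under them follow from that shift by construction. The filters by construction add or remove probes. The cause of the other changes was not tested.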
